A study of Mus musculus with 2 samples.

Results

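The cytosolic nucleic acid sensors described here are 9 genes of 22905 that were named on the arrays: the RIG-I-like receptors Ddx58, Ifih1 and Dhx58, their adaptor Mavs, the DNA-pathway adaptor Tmem173, the Z-form nucleic acid sensor Zbp1, the double-stranded RNA-binding enzymes Eif2ak2 and Adar, and Tlr3. They were chosen by name, with earlier results of these arrays known, so the counts over them are a description. Each probe whose RefSeq accession belongs to one of these symbols is given, 15 probes in all. RNA of whole colon was measured on 2 single-colour Agilent mouse arrays, 1 for Villin-Cre mice and 1 for EP4 cKO mice (Villin-Cre; EP4flox/flox), to ask how loss of the prostaglandin E2 receptor EP4 in the epithelium alters colonic gene expression. Both genotypes are on C57BL/6, both carry the Cre transgene, which the villin promoter drives in the intestinal epithelium, and the methods give an age of 8 weeks. Only the EP4 cKO animals carry the floxed EP4 alleles. The labels say that each array received RNA combined from 3 pools of colon, whereas the methods describe the arrays with n = 3 per genotype; 1 array of each was analysed here, so there is 1 value per genotype, no spread between mice and no test; differences are between these arrays.

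Cells recognise misplaced nucleic acid with a small set of receptors. RIG-I (gene Ddx58) and MDA5 (gene Ifih1) are helicases that bind double-stranded RNA in the cytosol, and LGP2 (gene Dhx58) is a related helicase without the signalling domain that tunes both of them. Their signal passes through MAVS on the mitochondrial surface, whereas cytosolic DNA is read by cGAS and passed on through STING (gene Tmem173), and TLR3 reads double-stranded RNA from within endosomes. These routes meet at the kinase TBK1 and at IRF3 and IRF7, which switch on interferon genes. Secreted interferon acts through its receptors on transcription factors that include STAT2 and IRF9, and many of the sensors are themselves interferon-stimulated genes. ZBP1 binds left-handed nucleic acid and engages RIPK3, PKR (gene Eif2ak2) halts translation by phosphorylating eIF2alpha, and ADAR1 (gene Adar) edits adenosine in double-stranded RNA so that it is not sensed. In the gut these proteins guard an epithelium that faces viruses and bacteria.

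The arrays were checked against their labels first. Ptger4, the gene of EP4, had a normalized signal of 6227 in Villin-Cre colon and 5661 on the array labelled EP4 cKO by its brighter probe, a log2 ratio of -0.14. Its dimmer probe read 392.6 and 592.0, a log2 ratio of 0.59, so the deletion is not visible in whole colon RNA with these probes. Whether the probes lie in the deleted part is not known, and every direction given here rests on the labels. The colon label itself held for the epithelium: all 11 epithelial markers were well above background on both arrays. The check does not cover the stroma. Fibroblast markers differed between the arrays, with sums of 13114 on the Villin-Cre and 302.2 on the EP4 cKO array. Of the gene probes, 45.4% and 51.6% were well above background on the Villin-Cre and the EP4 cKO array.

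Promoter sequence was available for 6 of the 9 genes in the RefSeq table of GRCm38.p6, as 8 windows of 300 bases that run from 250 bases before a transcription start to 50 after it. Dhx58, Zbp1 and Tmem173 have no entry in this table of promoter windows, although their probes could be named by RefSeq accession. The reason is not known. The windows were searched on both strands for GAAANNGAA, the core of the interferon-stimulated response element, and for TTCNNNGAA, the GAS (gamma-activated sequence) element. The first motif was in windows of Ddx58, Ifih1, Eif2ak2 and Adar, and in no window of Mavs or Tlr3. These stretches of 30 bases are shown because 2 of the genes, Ddx58 and Ifih1, had more than 2-fold higher signal on the EP4 cKO array. Capitals mark the match, read along the gene's own strand, and a match that opens with TTC is the motif on the opposite strand.
Ddx58, chr4:40239804-40239833, minus strand: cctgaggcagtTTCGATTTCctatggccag
Ifih1 upstream, chr2:62646349-62646378, minus strand: aagaattcgcgTTCCCTTTCctgtttctca
Ifih1 downstream, chr2:62646206-62646235, minus strand: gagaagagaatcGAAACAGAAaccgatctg
Eif2ak2, chr17:78882533-78882562, minus strand: tccgccggGAAAACGAAACAGAAgagaacc
Adar upstream, chr3:89730468-89730497, plus strand: gGAAAAGGAActtcctcacagggcggagag
Adar downstream, chr3:89730738-89730767, plus strand: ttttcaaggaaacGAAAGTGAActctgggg
Counted from the start as base 1, the match began at base 4 in Ddx58 and at bases -112 and 33 in Ifih1. In Eif2ak2 a pair of overlapping matches began at base 19. Adar has 3 windows, and only the last of them held the motif, at bases -249 and 34. Among all 32851 windows of the table, 8.56% held this motif and 8.30% held the GAS element, which occurred in Eif2ak2 and in that same Adar window. Of the 8 sensor windows, 4 held the first motif. Counted by gene, the first motif was in a window of 9.76% of 27025 genes and of 4 of the 6 sensors. A match is a run of letters and was not tested as a binding site.

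All 9 sensors were measured on both arrays by their brightest probe, and 5 of them, Zbp1, Dhx58, Ddx58, Ifih1 and Tlr3, had more than 2-fold higher signal on the EP4 cKO array. The other 4 genes, Eif2ak2, Adar, Tmem173 and Mavs, lay within 2-fold. None was more than 2-fold lower, and Mavs was the only one with a negative log2 ratio. Of 14676 genes with a value, 4.89% were more than 2-fold higher on the EP4 cKO array and 7.98% more than 2-fold lower, against 55.6% and 0 of 9 for the sensors. The median log2 ratio of the sensors was 1.12 and that of all genes -0.10. Counted by probe, 12 of the 15 were well above background on both arrays and 7 of those 12 were more than 2-fold higher, where 3.18% of all 24734 such probes were. Signals are the scanner software's processed signals scaled to a trimmed mean of 2500 per array; the ± beside a signal is the software's own error for that spot, which covers the reading of 1 spot and not mice or labelling. Since the tissue is a mixture, a larger number of cells that use a gene and more RNA per cell cannot be told apart.

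**Figure D1:**
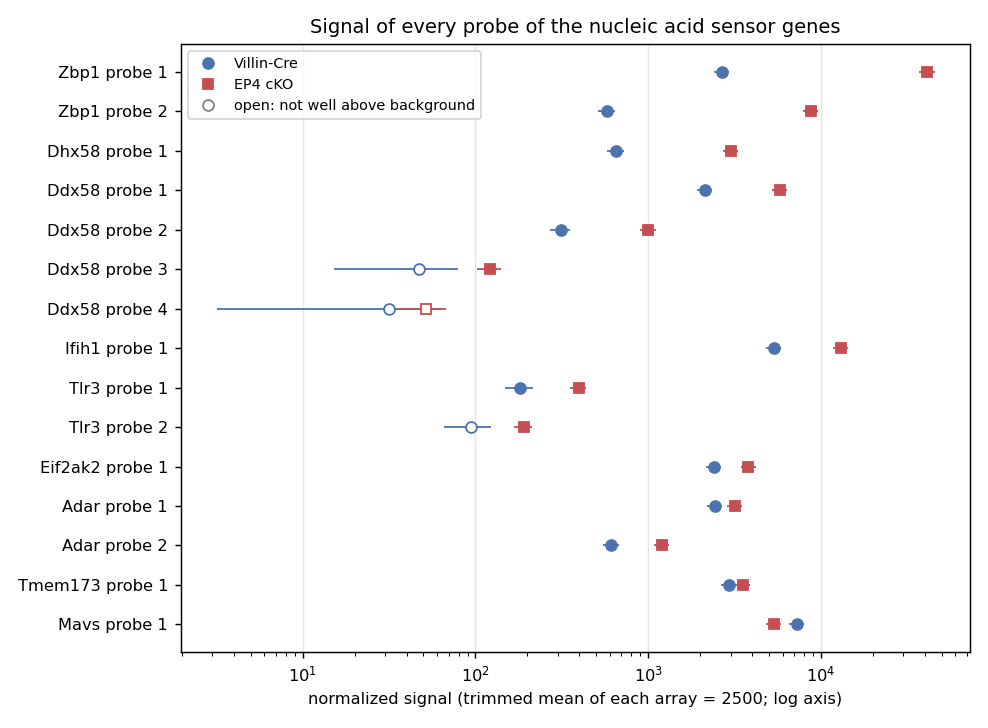
Normalized signal on a log axis of each of the 15 probes of the 9 sensor genes in Villin-Cre (circles) and EP4 cKO colon (squares); bars are the software error of the spot, cut off where it exceeds the signal, and open symbols were not well above background. The Zbp1 symbols lie farthest apart, at 2686 and 41402 for its brighter probe. Those of Tmem173, of the brighter Adar probe and of Mavs lie closest together.

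Zbp1, the sensor of Z-form nucleic acid, stood farthest apart. Its brighter probe read 2686 ± 270.4 for Villin-Cre and 41402 ± 4140 for EP4 cKO, which is 15.4-fold higher (log2 ratio 3.95, software error 0.20). The other probe read 575.3 and 8730, 15.2-fold higher, and the log2 ratios of the probes differed by 0.02. This gene ranked 59 among the 14676 by log2 ratio, with 0.395% of genes above it. Its log2 ratio was 4.98 under the E1A scaling described beside Mavs and lay between 3.87 and 4.10 under the other alternatives.

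Among the RIG-I-like receptors, the regulator LGP2 showed the widest difference. Dhx58 read 649.4 ± 71.6 and 3004 ± 300.7, 4.63-fold higher on the EP4 cKO array (log2 ratio 2.21, software error 0.21, rank 170). Ddx58, which encodes RIG-I and is also named Rigi, read 2124 ± 214.1 and 5820 ± 582.2, 2.74-fold higher (log2 ratio 1.45, software error 0.20, rank 383). Ddx58 is the sensor with the most probes on the array, 4 in number. The next probe of Ddx58 read 311.9 and 1003 and was 3.22-fold higher, a log2 ratio that differed by 0.23 from that of the brightest. A further probe was not well above background on the Villin-Cre array, at 47.1 against 121.4, and gave no fold above the floor of that array, which is 125.4. The faintest, at 31.7 and 51.6, did not stand well above background for either genotype. Both informative probes of the RIG-I gene therefore pointed the same way.

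Ifih1, which encodes the long double-stranded RNA sensor MDA5, read 5346 ± 535.4 for Villin-Cre and 13083 ± 1308 for EP4 cKO. That is 2.45-fold higher (log2 ratio 1.29, software error 0.20, rank 480), from 1 probe. The 3 RIG-I-like receptors thus all had higher signal in the EP4 cKO colon, and under each alternative scaling, background correction and probe rule tried each of them stayed past 2-fold, with lowest log2 ratios of 1.05 for Ddx58, 1.24 for Ifih1 and 1.99 for Dhx58.

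The adaptors of the RNA and DNA routes lay within 2-fold. Mavs, which carries the signal of RIG-I and MDA5, read 7253 ± 725.8 and 5366 ± 536.7, a log2 ratio of -0.43 with a software error of 0.20. Tmem173, now named Sting1, which relays the signal of cGAS, read 2924 ± 293.9 and 3547 ± 355.0, 1.21-fold higher (log2 ratio 0.28, software error 0.20). Each has 1 probe on the array. Both depend on the scaling: the log2 ratio was 0.60 for Mavs and 1.31, past 2-fold, for Tmem173 when the arrays were set equal on spiked-in E1A control spots, an alternative that moved the median of all genes up by 0.97.

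Tlr3, the endosomal receptor of double-stranded RNA, was close to background, with a Villin-Cre signal 1.45 times the floor of that array. It read 182.3 ± 34.4 and 395.4 ± 41.7, 2.17-fold higher (log2 ratio 1.12, software error 0.31, rank 591). Its other probe read 94.7 for Villin-Cre, not well above background, and 190.0 for EP4 cKO, at least 1.52-fold higher. The call was close to the threshold and was lost under 2 alternatives: the log2 ratio was 0.91 after normexp background correction with quantile normalization and 0.86 as the mean of both probes.

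The effector enzymes were on the near side of 2-fold. Eif2ak2, the PKR gene, read 2397 ± 241.3 and 3812 ± 381.4, 1.59-fold higher (log2 ratio 0.67, software error 0.20, rank 1250). Adar read 2445 ± 246.2 and 3192 ± 319.5 by its brighter probe, 1.31-fold higher (log2 ratio 0.38), and 612.3 and 1196 by the other, 1.95-fold higher (log2 ratio 0.97). The Adar probes differed by 0.58, while over 4103 genes with a pair of probes measured on both arrays the median difference was 0.19 and the 90th percentile 0.72. Neither Adar probe passed 2-fold. The Eif2ak2 and Adar ratios passed it under the E1A scaling alone, at 1.70 and 1.42.

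**Figure D2:**
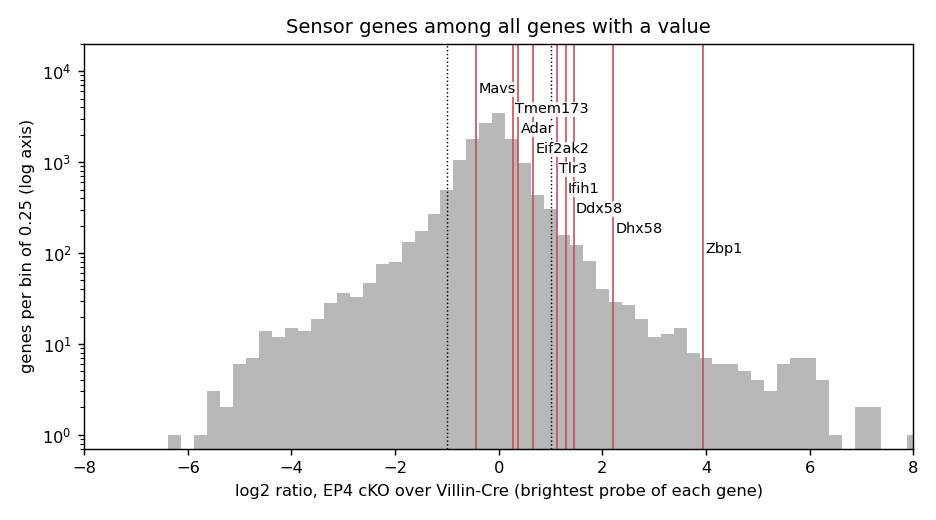
Histogram of the log2 ratio (EP4 cKO over Villin-Cre) of the 14676 genes with a value, in bins of 0.25 with a log axis of counts; vertical lines mark the 9 sensors and dotted lines 2-fold. Mavs, at -0.43, is the only sensor left of 0, and Zbp1, at 3.95, is the farthest right.

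Set in order of log2 ratio, the sensors ran from Zbp1 through Dhx58, Ddx58, Ifih1, Tlr3, Eif2ak2, Adar and Tmem173 to Mavs. Some steps of that order exceeded 2 software errors of the difference: Zbp1 over Dhx58 by 1.74 (error 0.30), Dhx58 over Ddx58 by 0.76 (error 0.30) and Tmem173 over Mavs by 0.71 (error 0.29). The steps from Ddx58 to Ifih1 and Ifih1 to Tlr3 were 0.16 and 0.17, within that error. Tlr3 to Eif2ak2 was 0.45 with an error of 0.37, and the steps on to Adar and Tmem173 were 0.28 and 0.11, so these neighbours were not set apart by the reading of the spots. The software error covers the reading of the spots only. Probes of the same gene differed by up to 0.72 at the 90th percentile, and the step from Tmem173 to Mavs is within that difference. The step from Dhx58 to Ddx58 is barely beyond it and is smaller against the other Ddx58 probe, at 1.69. The order says nothing of mice, since each genotype is 1 array.

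**Figure D3:**
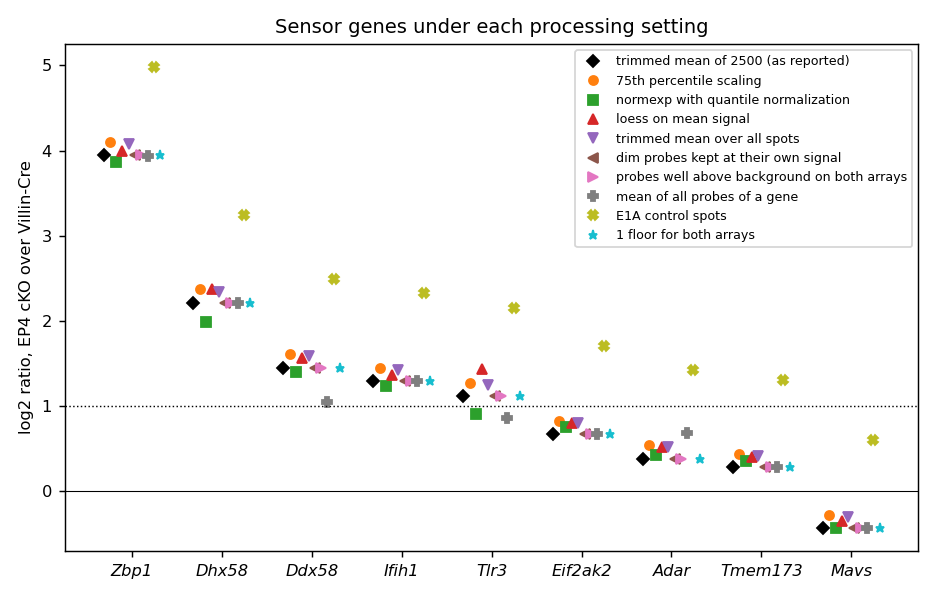
Log2 ratio (EP4 cKO over Villin-Cre) of the 9 sensors under the reported scaling (black diamonds) and 9 alternatives; the dotted line marks 2-fold. The E1A scaling lies above the others for every gene, and Tlr3 is the gene whose symbols fall on both sides of the line without it.

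The genes that work beside the sensors were described as fixed lists, 111 genes of which 100 had a value; 17 (17.0%) were more than 2-fold higher on the EP4 cKO array, 3 were more than 2-fold lower, and their median log2 ratio was 0.12, beside 4.89% higher, 7.98% lower and a median of -0.10 over all genes. The same background applies to each list, and the lists too were drawn up with earlier results known. Other receptors and binders of nucleic acid gave the widest range, with 6 of 16 more than 2-fold higher, 1 lower and a median of 0.27. Oas2, an oligoadenylate synthetase that makes the activator of RNase L, read 208.5 and 14046, a log2 ratio of 6.07, while its other probe was well above background on neither array, at 30.2 and 29.1. Oasl2, a relative of the same family, read 1639 and 40566 (log2 ratio 4.63), and Oas1a, which has close copies, 53960 and 163717 (1.60). Ddx60, a helicase linked to RIG-I, read 157.5 and 3578 (4.51). Its other probe was not well above background on the Villin-Cre array and was at least 19.4-fold higher. The Villin-Cre signals of Oas2 and Ddx60 were close to the floor of that array, 125.4. The remaining 2 higher genes, Ifit1, which binds foreign RNA ends, and Oas3, are named after their values were seen: neither was well above background on the Villin-Cre array, and Ifit1 was at least 67.3-fold and Oas3 at least 22.1-fold higher.

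Several DNA sensors of the same list were measured on both arrays and lay within 2-fold. Cgas, which makes the second messenger for STING, had a log2 ratio of 0.24, Aim2, the DNA-binding inflammasome receptor, -0.16, and Tlr9, the endosomal receptor of bacterial DNA, -0.26. Ifi204, another DNA-binding protein, was well above background for EP4 cKO only, at 97.5 and 191.2, and its bound of 0.61 leaves its side of 2-fold unknown. Tlr7, the endosomal receptor of single-stranded RNA, was the 1 lower gene and is also named after its values were seen. Its brightest probe read 2183 on the Villin-Cre array and was not well above background on the other, at least 37.8-fold lower (17.4-fold with 1 common floor for both arrays), yet another Tlr7 probe read 1260 and 744.0, a log2 ratio of -0.76. The Tlr7 probes thus disagree in size.

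Of the 12 ligases and cofactors of the RIG-I-like receptors, 11 were measured on both arrays and lay within 2-fold, and Zcchc3, a cofactor of RNA binding, gave a bound with no fold; the median was 0.05. Trim25, the ubiquitin ligase of RIG-I, had a log2 ratio of 0.71 and Zc3hav1, an antiviral zinc-finger cofactor, 0.88. In the list of signalling from MAVS, STING and TRIF, 2 of 15 genes were higher, 1 was lower and the median was 0.00. Irf7, the interferon-inducible factor that amplifies interferon transcription, read 37247 and 252885 (log2 ratio 2.76; 2.95 by its other probe). Tbk1, the kinase shared by the 3 routes, read 770.6 and 1788 (1.21). Irf3, the constitutive partner of IRF7, was at -0.35. Ikbkg, the NEMO subunit of the NF-kappaB kinase, read 974.0 and 380.7 by its brightest probe, a log2 ratio of -1.36, but its other probes with a value gave 0.02 and -0.18.

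ZBP1 kills cells through RIPK3 and MLKL, and both of these had higher signal beside it. Mlkl, the pore-forming executioner of necroptosis, read 1785 and 5466 (log2 ratio 1.61), and Ripk3, its kinase, 3379 and 9078 (1.43). The other genes of that list of 6 were within 2-fold: Casp8, which restrains necroptosis, was at 0.65, Ripk1 at -0.16, Fadd at -0.18 and Casp6 at -0.09. The 9 eIF2alpha kinases and stress genes that stand beside PKR were all within 2-fold, between -0.71 for Eif2ak4 and 0.92 for Ppp1r15b, with a median of 0.00. None of the 4 relatives of Adar stood well above background for either genotype.

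Among 17 nucleases and brakes of sensing, 2 were higher and none lower, with a median of 0.39. Usp18, the protease that removes ISG15 and dampens interferon receptor signalling, was not well above background for Villin-Cre and read 5807 for EP4 cKO, at least 42.7-fold higher. Trex1, the exonuclease that clears cytosolic DNA, read 4736 and 11304 (log2 ratio 1.26). Samhd1, which depletes nucleotides, was at 0.13 and Tnfaip3, the A20 brake of NF-kappaB, at 0.82.

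The last step of sensing is transcription of the interferon genes. Of 18 interferon genes, 12 had a value and 6 of those had it on both arrays, 1 was more than 2-fold higher and 1 lower, and the median was 0.00, or -0.08 over the 6 alone, since bounds without a fold count as 0. Ifnl3, a type III interferon of epithelia, read 280.8 and 710.3 (log2 ratio 1.34). Ifnb1, the type I interferon made first after sensing, read 181.4 for Villin-Cre and was not well above background for EP4 cKO, at least 3.14-fold lower. With 1 common floor for both arrays that bound was 1.45-fold, within 2-fold. Ifng, the interferon of T and NK cells, was at 0.25. The Ifna genes, and Ifnl2 with Ifnl3, are near-identical copies that a probe may not separate. Farther along the pathway, 4 of 13 receptor and ISGF3 genes passed 2-fold upward and 0 downward, with a median of 0.45. Stat2, which carries the type I and type III interferon signal to the nucleus, read 2877 and 10562 (log2 ratio 1.88), and Irf9, its DNA-binding partner, 4563 and 15347 (1.75). Irf1, an interferon-inducible activator, read 29301 and 74994 (1.36). The receptor chains Ifnar1 and Ifnar2 were at -0.55 and -0.02.

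**Figure D4:**
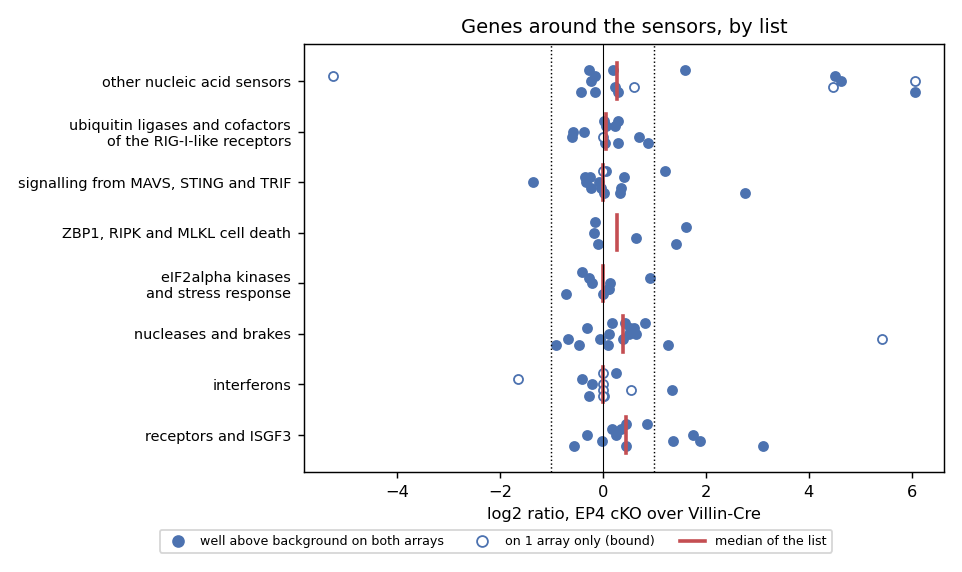
Log2 ratio (EP4 cKO over Villin-Cre) of each gene with a value in 8 lists of genes that work beside the sensors; filled points were well above background on both arrays, open points are bounds (at 0 where the floor allowed no fold), red lines are list medians and dotted lines 2-fold. Oas2 and Ifit1, both at 6.07, lie farthest right, and the ligase and eIF2alpha lists stay between the dotted lines.

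Markers of other cells that use these sensors were read on the same arrays. Of 4 general leukocyte markers, 2 were more than 2-fold higher on the EP4 cKO array, and their summed signal was 3015 in Villin-Cre and 7429 in EP4 cKO colon; Ptprc, the CD45 gene, read 416.0 and 813.2, and Laptm5 went the other way, 273.1 and 183.2. The macrophage and monocyte list had 1 of 8 past 2-fold, Ly6c2, which read 65616 and 372306 and has a close paralogue, and the sum of that list, 129312 and 460371, differed mainly by this gene. Csf1r, the receptor that macrophages depend on, was at -0.79, Cd68 at -0.09 and Cd14 at 0.88, C1qa and C1qc gave no fold, and Adgre1 was well above background on neither array. Of 8 T and NK markers with a value, 3 were higher and none lower, with sums of 11843 and 13356. The dendritic list had 1 of 4 with a value past 2-fold, Itgax at 1.73, with sums of 239278 and 213804 that are nearly all Siglech, and Flt3, Xcr1, Clec9a and Batf3 were well above background on neither array. For B and plasma cells 0 of 4 passed 2-fold (sums 7703 and 8673), and for neutrophils S100a9 (1.25) and S100a8 (a bound of 1.5) of 3 with a value were higher. The neutrophil sums of 106906 and 82749 are nearly all Csf3r, which read 106452 and 81629 (-0.38). Siglech (238790 and 213032), Itgam (49347 and 68598), Csf3r and Ly6c2 read far above every general leukocyte marker. The brightest of those markers, Cd52, read 1498 and 4039. Whether such bright probes report dendritic cells, neutrophils and monocytes here was not tested. The sums of these lists are therefore not a measure of those cells.

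All 5 fibroblast markers with a value were more than 2-fold lower, with sums of 13114 and 302.2, and Dcn had a log2 ratio of -5.77. Smooth muscle had 1 of 5 lower (sums 30148 and 45500), nerve and glia 1 of 2 lower (sums 3469 and 1597) and endothelium 0 of 2 past 2-fold (sums 1136 and 1149). Of the 11 epithelial markers, 1 was higher, Krt20, a surface keratin, at 1.80, and the sums were 1916773 and 2449660. The markers that gave no value for want of a probe or of signal well above background included, beside those named above, Lyz2 of macrophages, Ncr1 of NK cells, Ms4a1, Cd79a and Mzb1 of B and plasma cells, Ly6g, Cxcr2 and Mpo of neutrophils, Pdgfra of fibroblasts, Myh11 of smooth muscle, Cdh5, Kdr and Tie1 of endothelium and Ret, Sox10 and S100b of nerve and glia. The part of cell composition in the sensor differences was not tested.

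**Figure D5:**
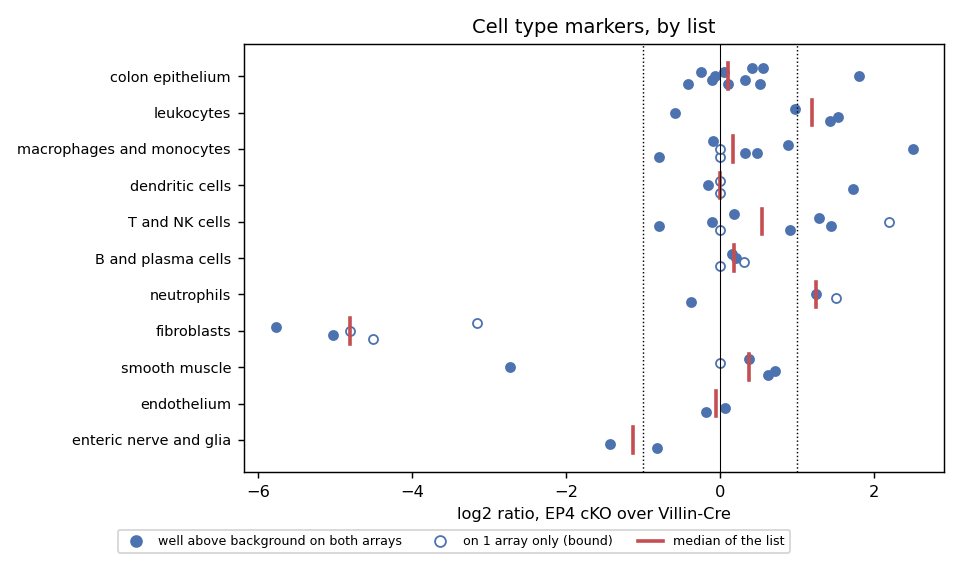
Log2 ratio (EP4 cKO over Villin-Cre) of cell type markers in 11 lists, drawn as filled points when well above background on both arrays and open points when a bound; red lines are list medians and dotted lines 2-fold. The fibroblast markers lie at the left, between -5.77 and -3.15, and epithelial markers except Krt20 (1.80) stay within 2-fold.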

How the data were processed

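The authors deposited scanner output of Feature Extraction 12.0.3.1 per the file headers (the submitters' processing notes name 11.5.1.1). The intensity used is the deposited processed signal, which the software had corrected for background and spatial trend; its error and its flags for background, saturation and outliers were used as given. No gene spot was saturated. The authors' scaling was repeated here: the mean of each array without 2% of the probes at either end (724.3 for Villin-Cre, 931.3 for EP4 cKO) was set to 2500.

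Control spots and outlier spots (147 and 126) were left out and spots of a probe averaged. The probe with the highest signal averaged over both arrays stood for a gene. A probe well above background on 1 array only was given a bound, with the dim side set at its own signal or, if greater, at the dim array's floor, the lowest signal of any probe well above background there (125.4 on Villin-Cre, 57.8 on EP4 cKO). Genes more than 2-fold apart were counted. Of 56593 probes, 32984 (58.3%) were named by RefSeq accession without version in a GRCm38.p6 table. The array grid uses an older assembly, so probes have no coordinates here.

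The alternatives were scaling to the 75th percentile, normexp (offset 50, on median spot signals) with quantile normalization, loess (span 0.3), a trimmed mean over all spots, other treatments of dim probes, the mean of a gene's probes and thresholds of 3-fold and 1.5-fold. Scaling to the E1A control spots and a common floor were chosen later, after seeing the data. The genes named are all 9 sensors, Ptger4, Usp18, Stat2, Irf9, Irf7 and, of each list, up to 4 genes past 2-fold with the largest ratios, those measured on both arrays first; other genes were singled out after their values were seen, and some items that the rule names are not reported here. The members and lists were chosen with earlier results of these data known. Python 3.11.15 (numpy 2.4.6, pandas 2.3.3, statsmodels 0.14.6), R 4.3.3 and limma 3.58.1 were used, and the calculations were tested on simulated data. The number of arrays, 1 per genotype, limits the precision, and no p-value is given.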

Additional observations from a re-analysis of the deposited data

How the results depend on the processing

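No paired analysis was possible because there is 1 array per genotype, and for the same reason no array could be left out. The median log2 ratio of the sensors was 0.91 with normexp and quantile normalization, 1.36 with loess and 0.86 with a gene's probes averaged; Tlr3 was at 0.91 and 0.86 under the first and the last of these, within 2-fold. At a threshold of 3-fold 2 sensors were higher, and at 1.5-fold 6 were. The share of all genes past these thresholds is not given, so these counts have no background. The E1A scaling, added after seeing the data, moved the median of all genes by 0.97: 8 sensors passed 2-fold, their median was 2.15, Mavs turned to 0.60, and Tmem173 (1.31), Adar (1.42) and Eif2ak2 (1.70) passed 2-fold. There 39.0% of all genes were more than 2-fold higher. Over all alternatives for single sensors, E1A included, 75 values kept direction and side of 2-fold, 2 no longer passed it, 3 came to pass it and 1 changed sign. Many of the 75 could not have changed. The brightest probe of all 9 sensors was well above background on both arrays. The other treatments of dim probes and the common floor therefore left each sensor at its reported value. Averaging probes could not move the 5 sensors with 1 probe. The cause of the shifts between settings was not tested.

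Genes more than 2-fold higher made up 38.0% of all genes past 2-fold as reported, 50.6% with the 75th percentile, 59.0% with normexp, 61.1% with loess, 48.6% with all spots, 13.9% with dim probes kept and 94.4% with E1A. The count of genes higher was 717 as reported, 1144 with loess, 1172 with dim probes kept and 5723 with E1A. That of genes lower was 1171, against 410 with normexp, 728 with loess, 7252 with dim probes kept and 338 with E1A. The counts with dim probes kept are out of 22905 genes and the others out of 14676. As shares, 31.7% were lower with dim probes kept and 7.98% as reported. The sensors' median minus that of all genes lay between 0.92 and 1.49 over these settings. Signal over background limits Tlr3 and the dimmer Ddx58 probes.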
